A study of Mus musculus with 6 samples.

Results

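Complement is a set of plasma and cell-surface proteins that tag and lyse microbes and damaged cells. The genes described here encode complement proteins that connective-tissue cells can make themselves: the proteases C1s1 and C1ra of the classical pathway, the lectin-pathway protease Masp1, the membrane collectin Colec12, the central components C3, C4b and C2, factor B (Cfb) of the alternative pathway, and the membrane inhibitor Cd55. They were chosen by gene symbol, and all 9 were present among the 17525 genes measured and passed the expression filter.

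The cells were primary cardiac fibroblasts that had not been passaged, from 6-week-old C57BL/6 mice. Lentivirus carried a short hairpin targeting Sipa1 in 3 knockdown samples, and a scramble sequence in 3 others, whose genotype is given as WT. The labels mention an EGFP reporter in the hairpin vector. All samples of both groups received lipopolysaccharide (LPS, a bacterial cell-wall component) at 1 µg/ml, added 72 h after the virus and left for 24 h, and all carry batch 1. The series holds no samples without LPS or without virus, so induction by LPS is not measured. Nothing in the labels states that replicates are independent cultures or mice, and p-values here may therefore rest on technical spread alone.

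Libraries held 30930998 to 41839742 reads in genes, and the smallest was scramble replicate 2. Sipa1, a GTPase-activating protein for Rap, averaged 17.6 ± 2.41 CPM (read counts relative to the scaled library size) in knockdown and 42.04 ± 1.46 CPM in scramble cells (SD, n = 3 each; log2 fold change -1.25, edgeR adjusted p = 2.64e-11), so 41.9% of the scramble level remained. Fibroblast markers, 9 of 9 measured, were abundant. They summed to 23048 to 25271 CPM in knockdown and 23164 to 26157 CPM in scramble libraries, and collagen genes made up most of these sums. However, 3 of the 9 markers (Dcn, Pdgfra and Tcf21) fell and 0 rose. The largest fall was that of Tcf21, to 85.1 ± 5.38 CPM in knockdown, against 152.6 ± 6.62 CPM in scramble cells (log2 fold change -0.84, edgeR adjusted p = 1.11e-11). Of all 15954 genes tested, 16.4% rose and 15.8% fell in knockdown cells at an adjusted p under 0.05, 32.2% in all.

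The classical pathway starts when C1q binds a target and the proteases C1r and C1s, bound to it, cut C4 and C2; the lectin pathway reaches the same step through collectins or ficolins and the MASP proteases. The pieces of C4 and C2 form an enzyme that cleaves C3, and factor B forms a second such enzyme with C3 itself. Hepatocytes make most plasma complement, while fibroblasts and macrophages add local supply that inflammatory signals can raise through NF-kappaB, C/EBP and interferon-driven factors.

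Masp1 was nearly doubled in Sipa1 knockdown cells (1.92-fold), and C1s1 was 1.20-fold higher. The other 7 genes, including C3, which was by far the most abundant, did not pass the test, and none of the 9 was called lower in edgeR (0 also at an unadjusted p under 0.05, and 0 in DESeq2 and limma). This made 2 of 9 genes called, where 32.2% of all genes were called, so the share is no higher than in the whole transcriptome. The median log2 fold change of the 9 genes was 0.022, against -0.0013 over all tested genes, and the median size of a change was 0.063, against 0.16. The groups did not overlap for 2 of 9 genes, both higher in knockdown cells, against 43.6% of all genes (22.4% with knockdown above and 21.2% with knockdown below).

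**Figure D1:**
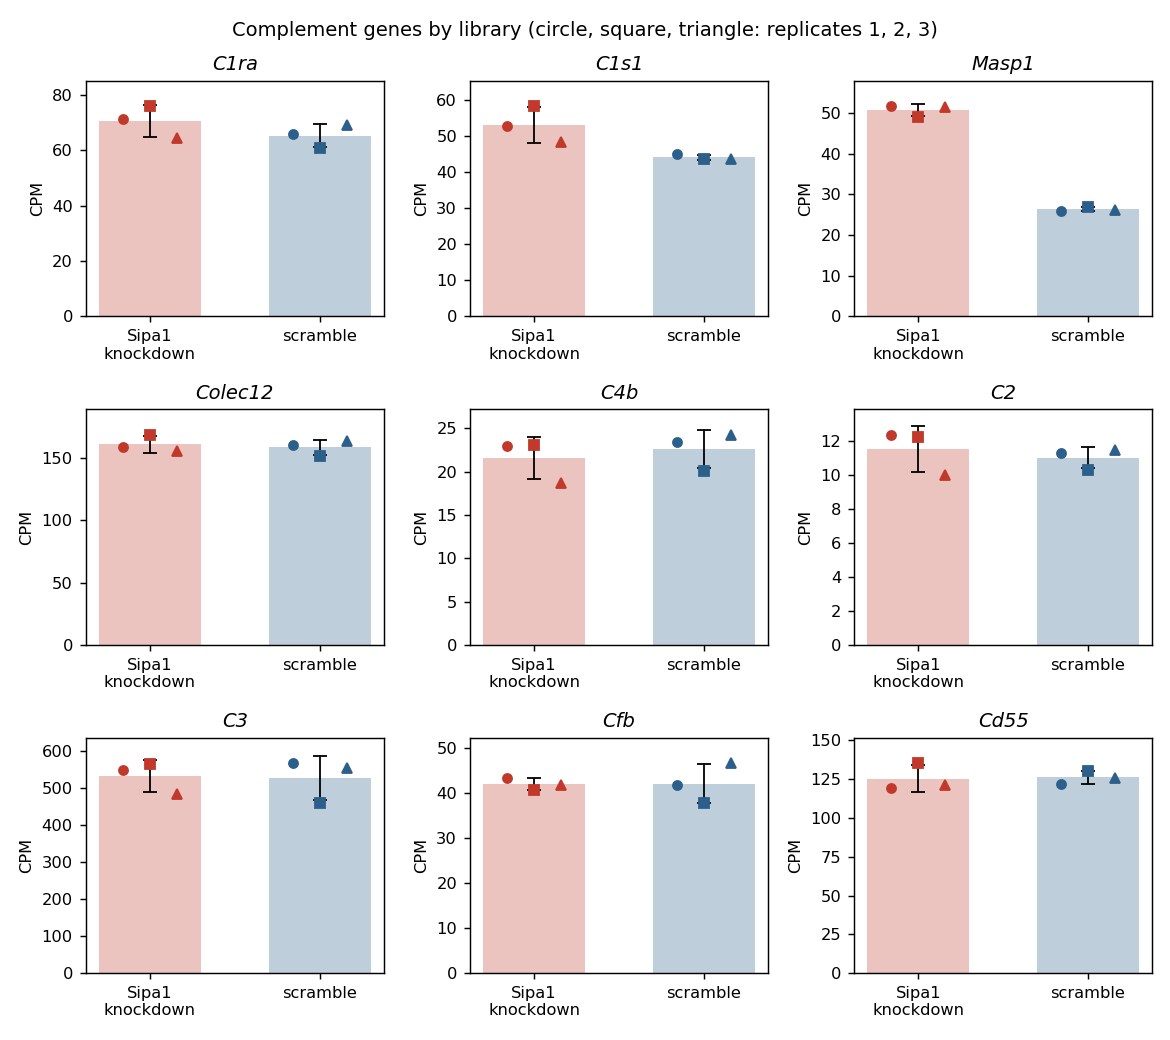
CPM of each of the 9 complement genes (y axis from 0) in Sipa1 knockdown and scramble cells. Bars are means, error bars SD over 3 libraries, and symbols single libraries. Only for Masp1 (49.1 to 51.7 against 26.0 to 27.0 CPM) and C1s1 (48.3 to 58.3 against 43.7 to 45.0 CPM) do all knockdown libraries lie above all scramble libraries.

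C3 was the most abundant of the 9 genes. C1rl, C1ra and C1s1 stand side by side but differ in whether they passed the test. The sequences before the start sites of these genes are shown. Each is the 150 bases upstream of the start in RefSeq's GRCm38.p6 promoter table, 5′ to 3′ on the gene's own strand, and capitals mark matches to the motifs searched. Of the 9 genes, 4 (C3, C1s1, C1ra and Cd55) matched an entry, and Masp1, with the largest change, did not. C1s1 has 2 entries, and the one nearest the GENCODE gene start was used. That window partly overlaps the RefSeq span of C1s1 given below. The Cd55 window (chr1:130462745-130462894, minus strand) lies wholly inside the RefSeq span of Cd55.
C3 (chr17:57228137-57228286, minus strand): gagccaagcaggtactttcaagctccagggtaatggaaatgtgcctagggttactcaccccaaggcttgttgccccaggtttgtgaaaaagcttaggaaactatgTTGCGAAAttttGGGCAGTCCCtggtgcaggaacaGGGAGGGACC
C1s1 (chr6:124542360-124542509, minus strand): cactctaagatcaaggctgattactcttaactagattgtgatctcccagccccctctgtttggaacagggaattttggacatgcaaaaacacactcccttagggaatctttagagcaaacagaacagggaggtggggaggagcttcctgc
C1ra (chr6:124512471-124512620, plus strand): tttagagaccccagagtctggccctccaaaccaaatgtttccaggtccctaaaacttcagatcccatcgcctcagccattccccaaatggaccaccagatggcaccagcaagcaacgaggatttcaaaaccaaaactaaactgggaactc
C1rl (chr6:124492963-124493112, plus strand): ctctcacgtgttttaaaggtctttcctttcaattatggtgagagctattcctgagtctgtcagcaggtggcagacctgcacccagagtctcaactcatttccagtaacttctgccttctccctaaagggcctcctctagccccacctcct
The motifs were TTGCNNAA (the C/EBP pattern), GGGNNNNNCC (a loose NF-kappaB pattern) and GAAANNGAAA (the interferon response pattern), each on both strands, and TATAAA on the coding strand. They occur in 5.46%, 35.4%, 1.59% and 4.84% of the 32851 promoter windows of this length. The C3 window holds a C/EBP match, TTGCGAAA, at -45 to -38 from the start and NF-kappaB matches at -33 to -24 (read on both strands) and -10 to -1, and no matches overlap one another. The windows of C1s1, C1ra and C1rl hold none of these letters, and the window of Cd55, not printed, holds GGGNNNNNCC only. Of the other genes of that locus, also not printed, C1rb holds a C/EBP match at -135 to -128 and an NF-kappaB match at -94 to -85, and C1s2 holds an NF-kappaB match at -66 to -57. A match is a description of the sequence and not a measured site.

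Within the C1 complex, C1s1 rose and its partner C1ra did not pass. C1s1 encodes C1s, the protease that cuts C4 and C2. C1s1 (NCBI gene 50908; GRCm38 chromosome 6, 124530344 to 124542392) stood at 52.7, 58.3 and 48.3 CPM in knockdown replicates 1, 2 and 3, against 45.0, 43.7 and 43.7 CPM in scramble replicates 1, 2 and 3. All 3 knockdown libraries lay above all 3 scramble libraries, by the least in knockdown replicate 3. The mean was 53.1 ± 5.03 CPM in knockdown and 44.2 ± 0.773 CPM in scramble cells (log2 fold change 0.27, SE 0.060, edgeR adjusted p = 0.00128). It passed in every alternative tried (adjusted p 2.24e-04 to 0.0402).

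C1ra encodes C1r, which activates C1s. C1ra (NCBI gene 50909; chromosome 6, 124512621 to 124523440) had 71.1, 75.9 and 64.5 CPM in knockdown libraries, against 65.9, 60.7 and 68.9 CPM in scramble libraries. The groups overlapped, with 2 of the knockdown libraries above and 1 inside the scramble range. The log2 fold change was 0.11 (95% interval -0.0090 to 0.23, edgeR adjusted p = 0.154). Without knockdown replicate 3 it was 0.17 and passed (adjusted p = 0.0372), with a range of 0.0372 to 0.629 over the alternatives.

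Set against each other per transcript length (FPKM, the authors' length-scaled values), C1s1 was 0.689, 0.721 and 0.700 of C1ra in knockdown libraries and 0.638, 0.674 and 0.594 of it in scramble libraries. The groups did not overlap, and the difference in mean log2 ratio was 0.15. The exact two-sided permutation test over 20 assignments gave 0.1, the smallest p that 3 against 3 libraries allow, so this test cannot pass 0.05.

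The genes around this pair give a wider view of the locus. C1rl, C1ra, C1s1, C1rb and C1s2 lie within 143.0 kb of chromosome 6. All 5 had positive estimates, where the median over all tested genes was -0.0013. C1rl and C1s1 passed, which is 2 of 5 called higher, against 16.4% of all tested genes. C1rl, which encodes a C1r-like protease, stood at 23.6 ± 2.93 CPM in knockdown and 18.02 ± 1.88 CPM in scramble cells (log2 fold change 0.38, SE 0.087, edgeR adjusted p = 0.00171). C1rb (0.090, SE 0.11) and C1s2 (0.25, SE 0.21) did not pass. C1rb is a close copy of C1ra and C1s2 of C1s1, so the split of reads between copies is uncertain. The 5 signs may therefore not be independent. C1s2 was sparse, at 1.86 ± 0.332 CPM in knockdown and 1.56 ± 0.281 CPM in scramble cells.

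C1q itself, the recognition part of C1 that macrophages mainly supply, was low and did not pass. C1qa averaged 2.42 ± 0.570 CPM in knockdown and 2.27 ± 0.272 CPM in scramble cells, and the log2 fold changes of C1qa, C1qb and C1qc were 0.10, -0.10 and 0.22. Per length, C1qa averaged 1.96 FPKM in knockdown and 1.83 FPKM in scramble cells, well below C1s1 at 15.8 FPKM in knockdown and 13.1 FPKM in scramble cells.

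Masp1 had the largest change of the 9 genes. It encodes the lectin-pathway protease MASP-1 and, by alternative splicing, MASP-3 and a shorter protein without protease activity. The table gives 1 value per gene, so the products were not told apart. Masp1 (NCBI gene 17174; chromosome 16, 23451785 to 23521240) stood at 51.7, 49.1 and 51.5 CPM in knockdown replicates 1, 2 and 3, against 26.0, 27.0 and 26.2 CPM in scramble replicates 1, 2 and 3. The groups were far apart relative to their spread, since the lowest knockdown library was well above the highest scramble library. The mean was 50.8 ± 1.46 CPM in knockdown and 26.4 ± 0.518 CPM in scramble cells. This is a fold change of 1.92 (95% interval 1.78 to 2.08; log2 0.94, SE 0.054, edgeR adjusted p = 7.72e-12). The log2 value ranged from 0.84 to 0.96 over the alternatives, and 145 of the 2613 higher genes rose at least as far. The authors' deposited table gives Masp1 a fold change of 1.92 with an adjusted p of 3.90e-49.

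Other genes that the gene list grouped with the lectin start were low or flat. Colec12, a membrane collectin and scavenger receptor (NCBI gene 140792; chromosome 18, 9707648 to 9877995), had 159.0, 168.5 and 155.1 CPM in knockdown libraries, against 160.3, 151.6 and 163.2 CPM in scramble libraries. The groups overlapped, and the log2 fold change was 0.022 (95% interval -0.071 to 0.12, edgeR adjusted p = 0.758). Masp2 was listed but too sparse to test, and Colec11, a soluble collectin, did not pass (-0.44, SE 0.30). Fcna, the mouse ficolin A, had 18, 11 and 8 reads in knockdown libraries, against 36, 15 and 26 reads in scramble libraries. Its groups overlapped; the call (log2 fold change -1.07, edgeR adjusted p = 0.0332) was lost without scramble replicate 1 (0.204) or 3 (0.0594), without knockdown replicate 2 (0.112) or 3 (0.136), in DESeq2 (0.0761) and in limma on log2(FPKM + 1) without a filter (-0.25, 0.0920), with a range of 0.0154 to 0.204.

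Cell types other than fibroblasts may also hold these transcripts, and in bulk RNA fewer cells of a type and less RNA per cell cannot be told apart. Markers of mesothelial and epicardial cells moved in the same direction as Masp1: 6 of 8 rose and 0 fell, with a median log2 fold change of 0.86. Their summed level was 217 to 229 CPM in knockdown and 96.0 to 104.9 CPM in scramble libraries, a ratio of 2.25, and none of the 8 was at 0. Lrrn4 made up most of that sum, at 146 ± 3.34 CPM in knockdown and 54.2 ± 2.23 CPM in scramble cells. Wt1 (log2 fold change 0.36, SE 0.17) and Krt19, whose estimate was in the other direction (-0.22, SE 0.12), did not pass. Leukocyte markers, of which 10 of 11 were measured, summed to 164 to 170 CPM in knockdown and 141 to 157 CPM in scramble libraries; 1, Csf1r, rose and 0 fell. Endothelial markers summed to 186 to 199 CPM in knockdown and 181 to 199 CPM in scramble libraries, with 2 rising and 1 falling of 7. The part of these cells in the Masp1 and C1s1 results was not tested.

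**Figure D2:**
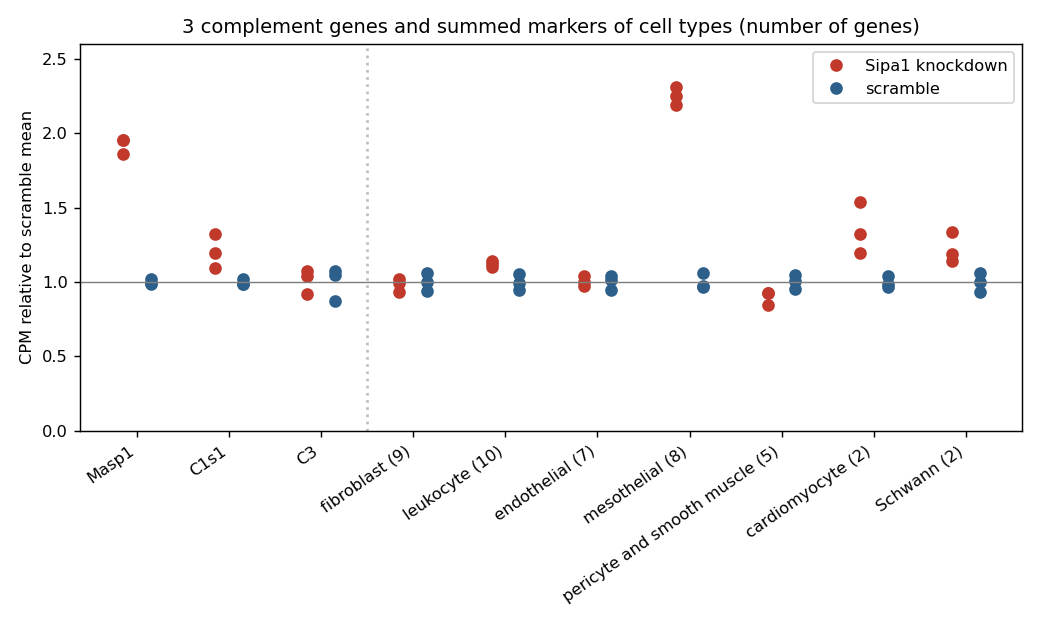
CPM relative to the scramble mean (y axis from 0) for Masp1, C1s1 and C3 and for the summed markers of each cell type, with the number of measured genes in brackets. Each point is 1 library. Masp1 and the mesothelial sum (ratio 2.25) are the items whose knockdown libraries stand farthest above scramble, while C3 and the fibroblast and endothelial sums overlap between groups.

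The remaining marker lists were small. The pericyte and smooth muscle markers, 5 of 6 measured, summed to 29.9 to 32.8 CPM in knockdown and 33.5 to 36.9 CPM in scramble libraries (0 rose, 1 fell). Of the cardiomyocyte markers, 2 of 6 could be tested and Tnnt2 rose; they summed to 24.8 to 31.9 CPM in knockdown and 20.1 to 21.6 CPM in scramble libraries. The Schwann cell markers, 2 of 3 measured, summed to 4.37 to 5.11 CPM in knockdown and 3.59 to 4.06 CPM in scramble libraries, and 0 passed. The 3 hepatocyte markers Alb, Apoa1 and Ttr were not among the 17525 genes measured.

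The central components showed no called difference. C3, whose cleavage is the step on which all pathways converge (NCBI gene 12266; chromosome 17, 57203967 to 57228136), had 547.3, 564.1 and 483.5 CPM in knockdown libraries, against 565.8, 458.3 and 552.0 CPM in scramble libraries. Each group had 1 low library, knockdown replicate 3 and scramble replicate 2, and the groups overlapped almost completely. The mean was 532 ± 42.5 CPM in knockdown and 525 ± 58.5 CPM in scramble cells (log2 fold change 0.017, edgeR adjusted p = 0.910). The 95% interval of the fold change was 0.885 to 1.16.

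C4b and C2, which together make the C3-cleaving enzyme of the classical and lectin pathways, lie with Cfb in the major histocompatibility complex on chromosome 17. C4b (NCBI gene 12268; 34728139 to 34743902) had 23.0, 23.0 and 18.8 CPM in knockdown libraries, against 23.5, 20.1 and 24.3 CPM in scramble libraries. The log2 fold change was -0.070 (95% interval -0.24 to 0.10, edgeR adjusted p = 0.573). C2 (NCBI gene 12263; 34862602 to 34882100) had 12.4, 12.2 and 9.96 CPM in knockdown libraries, against 11.3, 10.3 and 11.4 CPM in scramble libraries. Its log2 fold change was 0.063 (95% interval -0.13 to 0.26, edgeR adjusted p = 0.668). Both genes overlapped between groups, and both were lowest in knockdown replicate 3 and, among scramble libraries, in replicate 2. C4a, a near-identical copy of C4b, held 1.87 ± 0.443 CPM in knockdown and 2.17 ± 0.216 CPM in scramble cells (log2 fold change -0.20, SE 0.20), and reads may be split between the copies. Hc, the mouse C5 gene, did not pass (-0.41, SE 0.25).

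Per length, C2 was 1.10, 1.08 and 1.09 of C4b in knockdown libraries, against 0.983, 1.04 and 0.961 of it in scramble libraries. The libraries did not overlap, although neither gene passed alone. The difference in mean log2 ratio was 0.13 (exact permutation p = 0.1, the smallest possible).

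Cfb, the serine protease of the alternative pathway's C3-cleaving enzyme (NCBI gene 14962; 34856374 to 34862514), had 43.3, 40.7 and 41.8 CPM in knockdown libraries, against 41.8, 37.9 and 46.6 CPM in scramble libraries. All 3 knockdown values lay inside the scramble range. The log2 fold change was -0.0086 (95% interval -0.14 to 0.12, edgeR adjusted p = 0.939). Per length, Cfb was 0.148, 0.135 and 0.160 of C3 in knockdown libraries and 0.136, 0.155 and 0.155 of it in scramble libraries, which overlap (exact permutation p = 0.9). Cfb and C2 are adjacent paralogs, and Cfb was 3.41, 3.25 and 4.05 times C2 in knockdown libraries, against 3.55, 3.60 and 3.92 times C2 in scramble libraries (exact permutation p = 0.6). Cfp, which encodes properdin, a stabiliser of the alternative enzyme, did not pass (-0.22, SE 0.17).

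In the stretch of 154.0 kb from C4b to C2, 9 genes were tested. None of the 4 complement genes passed, and of the 5 others Nelfe, a transcription elongation factor gene next to Cfb, rose by 0.16 on the log2 scale (edgeR adjusted p = 0.0421).

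Cd55, decay-accelerating factor, dismantles the C3-cleaving enzymes on the cell's own surface. Cd55 (NCBI gene 13136; chromosome 1, 130429798 to 130465009) had 119.0, 135.0 and 121.0 CPM in knockdown libraries, against 122.0, 130.2 and 125.4 CPM in scramble libraries. The groups overlapped, and the log2 fold change was -0.0089 (95% interval -0.11 to 0.092, edgeR adjusted p = 0.916). Its copy Cd55b held 3.59 ± 0.294 CPM in knockdown and 3.10 ± 0.318 CPM in scramble cells (0.21, SE 0.15), and reads may be split between them. The 8 tested membrane regulators did not pass in the main edgeR fit. Of these, 1 had an unadjusted p under 0.05: Cr1l, which encodes the rodent regulator Crry (log2 fold change -0.12, edgeR adjusted p = 0.0783, unadjusted p = 0.0284).

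Ordered by level per length, the 9 genes kept nearly the same order in both groups. C3 averaged 92.04 FPKM in knockdown and 91.04 FPKM in scramble cells, rank 651 of 17525 genes in both. Colec12 averaged 42.6 FPKM in knockdown and 41.8 FPKM in scramble cells, Cd55 30.9 FPKM in knockdown and 30.2 FPKM in scramble cells, and C1ra 22.4 FPKM in knockdown and 20.7 FPKM in scramble cells. These first 4 did not overlap with their neighbours in either group. C1s1 averaged 15.8 FPKM in knockdown and 13.1 FPKM in scramble cells, and Cfb 13.5 FPKM in knockdown and 13.5 FPKM in scramble cells. C1s1 lay above Cfb in every knockdown library (14.4 to 17.5 against 13.3 to 13.9 FPKM), whereas the scramble ranges of C1s1 and Cfb overlapped. Masp1 averaged 11.3 FPKM in knockdown and 5.89 FPKM in scramble cells, which is rank 5053 in knockdown and 7414 in scramble cells. C2 and C4b came last, at 3.82 and 3.51 FPKM in knockdown and 3.65 and 3.67 FPKM in scramble cells, and their ranges overlapped.

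Several of the 9 genes varied together among the libraries of 1 group. Knockdown replicate 3 was the lowest of its group for 6 of 9 genes (C3, C1s1, C1ra, C2, C4b and Colec12), while it was lowest for 31.5% of all tested genes. Scramble replicate 2 was the lowest for 6 of 9 genes (C3, C1ra, C2, C4b, Cfb and Colec12), against 40.3% of all tested genes. Masp1 and Cd55 were in neither set. Masp1 deviated from its group mean by at most 0.048 on the log2 scale in any library. Cd55 was lowest in replicate 1 of each group and lay 0.050 above its group mean in scramble replicate 2. C3 deviated by -0.13 in knockdown replicate 3 and by -0.19 in scramble replicate 2, on the same scale.

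**Figure D3:**
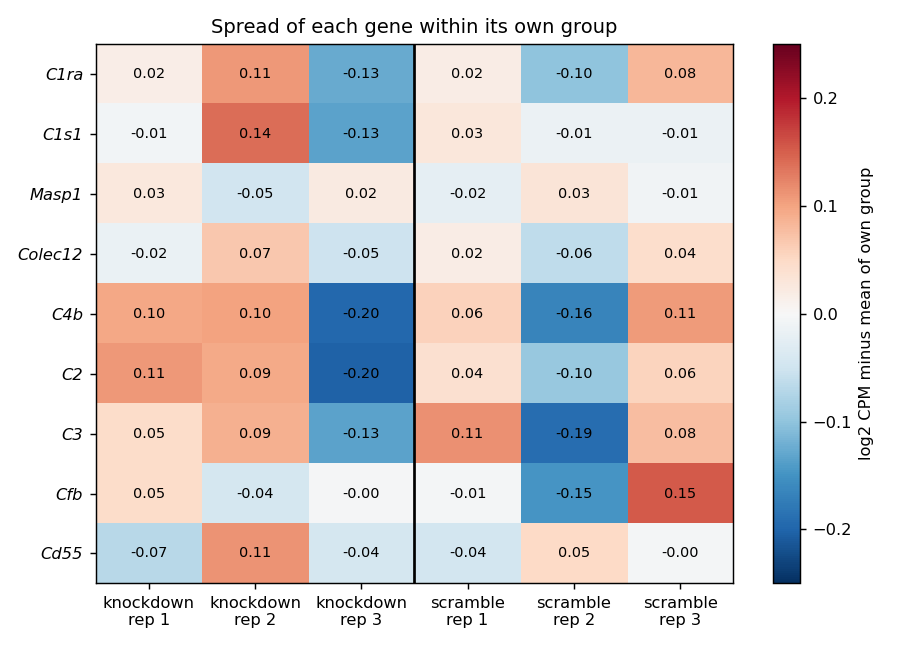
Deviation of each gene (rows) in each library (columns) from the mean of its own group, in log2 CPM. Blue cells lie below the group mean; knockdown replicate 3 and scramble replicate 2 each hold the lowest value of their group for 6 of 9 genes, and Masp1 stays within 0.048.

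The genes whose pattern over the 6 libraries was most like that of C3, by Pearson's r of log2 CPM among 11248 genes with a mean log2 CPM of at least 2, were Il11ra1 (r = 0.986), Pmp22 (0.983) and Olfml2b (0.982), none of which passed the test. For Masp1 they were Cnbp, Ptprd and Tnrc18 (r of at least 0.999), all of which rose (0.33, 0.26 and 0.47). With libraries in 2 groups, r near 1 for Masp1 mostly records the group difference, and these values are a description only.

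Beyond the 9 genes, the wider complement list held 48 genes, of which 30 were tested; 4 rose and 3 fell, against 32.2% called among all genes. Without knockdown replicate 3 none fell in edgeR, and without scramble replicate 1 or 3 the number was 1. The median log2 fold change of the list was 0.0049, and the median size of a change 0.21. Of 4 soluble regulators tested, 1 rose and 1 fell. Serping1 encodes the C1 inhibitor, which blocks C1r, C1s and MASP-1. It fell to 561 ± 30.4 CPM in knockdown cells, against 631 ± 21.4 CPM in scramble cells (log2 fold change -0.17, SE 0.047, edgeR adjusted p = 0.00737). That call was lost without knockdown replicate 3 (0.0800; range over the alternatives 0.00176 to 0.0800).

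Clu, encoding clusterin, a chaperone that binds terminal complexes, rose to 412 ± 14.5 CPM in knockdown cells, against 326 ± 12.4 CPM in scramble cells (log2 fold change 0.34, edgeR adjusted p = 2.56e-06). Cfi, the protease that inactivates C3b and C4b, did not pass (0.21, SE 0.12). Of 8 receptors and binding proteins, Itgb2, the beta chain of complement receptors 3 and 4 on leukocytes, rose (0.48, edgeR adjusted p = 0.00140), as did C1qbp, a mitochondrial protein that also binds C1q (0.23, adjusted p = 4.04e-04). Calr, the endoplasmic reticulum chaperone calreticulin, fell (-0.13, adjusted p = 0.0456). The Calr call was lost without scramble replicate 1 (0.184) or 3 (0.137), without knockdown replicate 1 (0.0831) or 3 (0.244), and with no filter, a non-robust fit or FPKM values, with a range of 0.0103 to 0.244. Of the 10 leukocyte markers tested, given above, 1 (Csf1r) rose, and the part of leukocytes in the Itgb2 result was not tested. The 6 terminal components, from C6 to C9, were listed but were not among the 17525 genes measured.

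**Figure D4:**
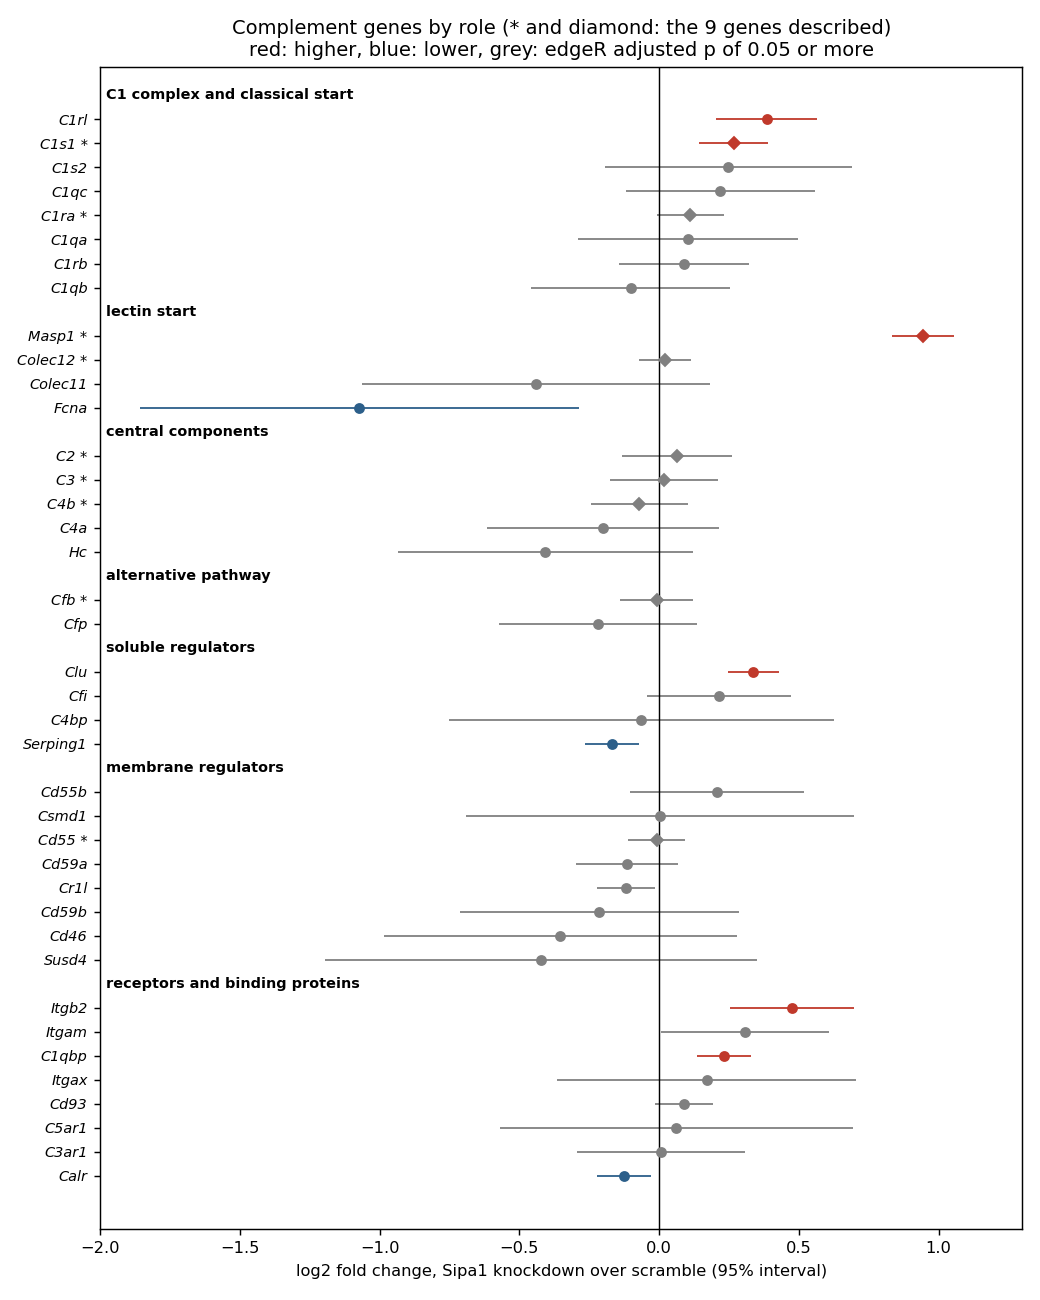
log2 fold change (x axis, knockdown over scramble, with 95% interval) of the 39 complement genes tested, grouped by role. Diamonds and asterisks mark the 9 genes described; red genes rose, blue genes fell and grey ones did not pass. Masp1 at 0.94 is the highest, and C2, C3, C4b and Cfb lie close to 0.

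The factors and signals known to act on complement genes moved more often downwards, while C3 and Cfb did not pass. Of 16 such genes 7 fell and 1 rose, against 32.2% called in all. The NF-kappaB subunit genes Rela (-0.30, edgeR adjusted p = 5.39e-05), Nfkb1 (-0.22, adjusted p = 6.26e-04), Nfkb2 (-0.23, adjusted p = 4.78e-04) and Relb (-0.22, adjusted p = 0.00817) fell. So did Irf1, an interferon-induced transcription factor (-0.40, adjusted p = 1.40e-05), the gp130 receptor chain gene Il6st (-0.45, adjusted p = 2.97e-08) and the LPS receptor gene Tlr4 (-0.15, adjusted p = 0.0410). Il1b, an inflammatory cytokine, rose (0.24, adjusted p = 0.0113). Cebpb (-0.093, SE 0.11) and Cebpd (0.096, SE 0.044), which encode the C/EBP factors of the inflammatory response, did not pass. Whether these transcripts bear on the complement genes was not tested.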

How the data were processed

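Per the labels' protocols, poly(A)-selected, strand-specific libraries were sequenced as paired reads. The submitters' processing notes list HISAT2, StringTie and mm10 but no version of a tool. Whether counting used strand was not stated there. The deposited table gives unnormalized whole-number read counts for each gene. The authors also deposited FPKM and TPM values, a signed fold score and Benjamini-Hochberg adjusted p-values; which tool made them was not stated. Every listed gene has at least 1 read in every library.

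R 4.3.3 and edgeR 4.0.16 were used for the count model: filterByExpr at its defaults, TMM scaling, and a robust quasi-likelihood test of group, two-sided, with Benjamini-Hochberg adjustment over 15954 genes and a threshold of 0.05. SE was taken as the size of the log2 fold change over the square root of F, and 95% intervals use the fit's degrees of freedom. CPM values are relative to TMM-scaled library sizes. Ratios between genes used FPKM without a pseudocount; deviations used log2 CPM with a prior count of 2. The fit was tested on simulated data. Alternatives were other scaling, filters, DESeq2 1.42.0, limma 3.58.1 (voom, or FPKM with a pseudocount of 1 or 0.1 and a group mean of at least 0.5), a replicate block and leaving out each library, and for ratios TPM, read counts or a pseudocount of 1.

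The 9 genes and the lists were chosen with earlier results of these data known; 1 gene of the complement list is not reported here and was left out of its counts. Named genes were Sipa1, the 9 genes, their close relatives, the listed complement genes that passed, the factors where a result turned on them, and the 3 genes most like C3 and Masp1. Cr1l, Cfp, Cfi, Hc, the C1q genes, Nelfe, Tnnt2, Lrrn4, Wt1, Krt19, Csf1r and the fibroblast markers that fell were named after their values were seen, and the promoter motifs were also chosen then. Coordinates come from RefSeq's GRCm38.p6 table through the NCBI gene ID. Ratios and sequences were handled in Python 3.11.15 (pandas 2.3.3).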

Additional observations from a re-analysis of the deposited data

How the results depend on the processing

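Masp1 and C1s1 stayed higher and past the threshold in all 17 alternatives, and Sipa1 stayed lower. The members called higher numbered 2 in 16 of 17 alternatives and 3 without knockdown replicate 3, when C1ra passed (leave-one-out range of its log2 fold change 0.047 to 0.17). For 5 of the 7 genes that were not called, the sign of an estimate near 0 changed. On leaving out single libraries C3 ranged from -0.074 to 0.082, C4b from -0.15 to 0.022, Cfb from -0.079 to 0.073, Cd55 from -0.077 to 0.026 and Colec12 from -0.021 to 0.049. On FPKM values Cfb was at 0.0061 (pseudocount 1, with or without the filter) or 0.0067 (pseudocount 0.1) and Cd55 at 0.024 in each; the cause was not tested. Complement genes outside the 9 that fell numbered 3, then 1 with each FPKM setting and 0 to 3 on leaving out libraries (0 without knockdown replicate 3, and 1 without scramble replicate 1 or 3). Without knockdown replicate 2 the number was again 3 although Fcna did not pass, so a gene not called in the main edgeR fit was counted. The cause of these changes was not tested either. Replicate numbers did not pair the samples: deviations of same-numbered libraries correlated at 0.0041, -0.0091 and -0.010 over genes. With the replicate block, 2710 genes rose and 2597 fell, against 2613 and 2526, and no call among the 9 genes changed (Masp1 0.94, C1s1 0.26, C1ra 0.11, Sipa1 -1.26). Over 10 alternatives each, the difference in mean log2 ratio was 0.10 to 0.19 for C1s1 to C1ra and 0.10 to 0.17 for C2 to C4b. It changed sign for Cfb to C3 (-0.073 to 0.050) and Cfb to C2 (-0.15 to 0.010). Sparse genes such as Fcna, with 8 to 36 reads, are limited by depth.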

Other observations

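The ratios of C1s1 and Masp1 to Serping1 were examined after the values were seen, so they are a description. Serping1 encodes the inhibitor of both C1s and MASP-1. The Masp1 value also pools MASP-3 and a shorter protein without protease activity. These products were not told apart, so the Masp1 ratio is not one of MASP-1 to its inhibitor alone. The fall of Serping1 was not called in edgeR without knockdown replicate 3. Per length, C1s1 was 0.0575, 0.0610 and 0.0562 of Serping1 in knockdown libraries, against 0.0430, 0.0445 and 0.0421 of it in scramble libraries. Masp1 was 0.0428, 0.0383 and 0.0450 of Serping1 in knockdown libraries, against 0.0187, 0.0206 and 0.0190 of it in scramble libraries. Both ratios were higher in every knockdown library, by 0.43 and 1.11 on the log2 scale, and the exact permutation p was 0.1 for both (two-sided), which 3 against 3 libraries cannot go below. Serping1 nevertheless remained more abundant per length than C1s1 or Masp1 in all 6 libraries. Transcript ratios do not measure protein amounts or complement activity, which were not measured here.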
